A study of Mus musculus with 9 samples.

Results

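The genes described here are the 7 mouse genes whose products write, copy or remove the methyl mark on cytosine. They are *Dnmt1*, *Uhrf1*, *Dnmt3a*, *Dnmt3b*, *Tet1*, *Tet2* and *Tet3*, chosen by symbol from the 48820 genes of the table, and all 7 were found. RNA-seq had been done on whole hearts of wild-type, untreated C57BL/6J mice, an inbred laboratory strain, at E18.5d (a late fetal stage), P1d (the first postnatal day) and P7d (the seventh postnatal day), with 3 biological replicates per stage and 9 hearts in all. The study used these stages to ask how gene expression shifts around birth in the heart. The authors deposited FPKM, fragments scaled by transcript length in kilobases and by the mapped fragments in units of 1e6, a value per length that allows levels of different genes to be compared. All labels give the sex as male, yet *Xist*, the RNA of the inactive X chromosome, stood at 58.0 to 97.0 FPKM in 4 hearts (E18.5d replicates 1 and 3, P7d replicates 2 and 3), with the 4 Y-linked genes examined at 0 there. In the other 5 hearts *Xist* did not exceed 0.11 FPKM and each Y-linked gene was at 9.74 FPKM or more. Some airway genes were also present in some hearts, with *Scgb3a2* above 5 FPKM in E18.5d replicates 1 and 2 and in P1d replicate 1. Of the 7 airway and lung markers examined, the other lung genes *Sftpc*, *Sftpb*, *Sftpa1* and *Nkx2-1* were under 1 FPKM in every heart. Calls among the 7 genes that were lost in the hearts low in *Xist* or in those low in *Scgb3a2* are named, and most counts relative to fetal hearts are also given for those hearts.

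In mammals DNA methylation sits mostly on the cytosine of CpG pairs. DNMT1 is the maintenance enzyme that copies the mark onto the new strand after replication, and UHRF1 binds hemimethylated DNA and brings DNMT1 to it. DNMT3A and DNMT3B place the mark on unmethylated sites. TET1, TET2 and TET3 are dioxygenases that oxidize 5-methylcytosine to 5-hydroxymethylcytosine and further, using oxygen, iron and 2-oxoglutarate, which opens a route to its loss. The heart around birth is the tissue in which most cardiomyocytes leave the cell cycle.

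On GRCm38 with the GENCODE M21 annotation, *Dnmt1* (ENSMUSG00000004099) lies on the minus strand at chr9:20907209-20959888 and *Uhrf1* (ENSMUSG00000001228) on the plus strand at chr17:56303321-56323486. *Dnmt3a* (ENSMUSG00000020661) is at chr12:3806007-3914443 and *Dnmt3b* (ENSMUSG00000027478) at chr2:153649450-153687730, both on the plus strand. The TET genes lie on the minus strand, with *Tet1* (ENSMUSG00000047146) at chr10:62804570-62908996, *Tet2* (ENSMUSG00000040943) at chr3:133463679-133545139 and *Tet3* (ENSMUSG00000034832) at chr6:83362373-83459084. The values are given per gene and do not separate transcripts, and which exons they cover is not stated.

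The promoters of *Uhrf1* are shown first because *Uhrf1* had the largest change of the 7 genes and because both of its promoter windows hold the letters TTTNNCGC. These letters are a loose form, with any base at each N, of the binding site of E2F factors, which drive S phase genes. A stricter form was not searched. The sequences are RefSeq windows of GRCm38.p6, which run from 250 bases before to 50 bases after a gene start. Only the part upstream of the start and outside annotated UTRs is printed, on the plus strand, with the match in capitals. The first start has its match 56 bases before it and the second, which lies inside the gene, has it 185 bases before it.
Uhrf1 first start, chr17:56303087-56303320: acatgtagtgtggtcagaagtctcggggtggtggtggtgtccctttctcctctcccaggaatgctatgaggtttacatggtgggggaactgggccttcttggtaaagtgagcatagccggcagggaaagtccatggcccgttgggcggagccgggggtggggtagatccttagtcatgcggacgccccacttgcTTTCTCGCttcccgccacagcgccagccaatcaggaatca
Uhrf1 second start, chr17:56304063-56304312: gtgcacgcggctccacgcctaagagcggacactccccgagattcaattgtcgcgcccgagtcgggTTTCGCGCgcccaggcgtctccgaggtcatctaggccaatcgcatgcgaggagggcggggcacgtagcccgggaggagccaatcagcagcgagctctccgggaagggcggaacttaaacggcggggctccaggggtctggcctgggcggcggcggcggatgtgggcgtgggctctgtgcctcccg
The search covered both strands (GCGNNAAA on the other). In *Dnmt1*, 1 of 3 windows held the letters, as GCGCGAAA and the overlapping GCGAAAAA, which start 219 and 217 bases before the start, and as TTTGGCGC 33 bases after it. None of the 3 windows of *Dnmt3a* and none of the single windows of *Dnmt3b*, *Tet1*, *Tet2* and *Tet3* held it. Of all 32851 windows 5.2% held it, and of all genes with a window 5.9% did. Of the S phase genes used below 9 of the 20 with a window did. The letters contain a CpG, and the median window holds 7 CpG. The windows with a match hold 33 in *Dnmt1* and 12 and 33 in *Uhrf1*, so the share of all windows is no measure of chance for them. These matches describe letters in a window and not bound sites.

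The 3 stages gave 3 patterns. *Dnmt1* and *Uhrf1* were highest in the fetal heart, lowest on P1d and between the 2 on P7d. *Tet1* was lowest on P1d, by a smaller amount. *Dnmt3a*, *Dnmt3b* and *Tet3* passed the test in no comparison, and *Tet2* was higher on P1d by a margin that did not hold under most other settings. The plot of FPKM by heart shows all values.

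**Figure D1:**
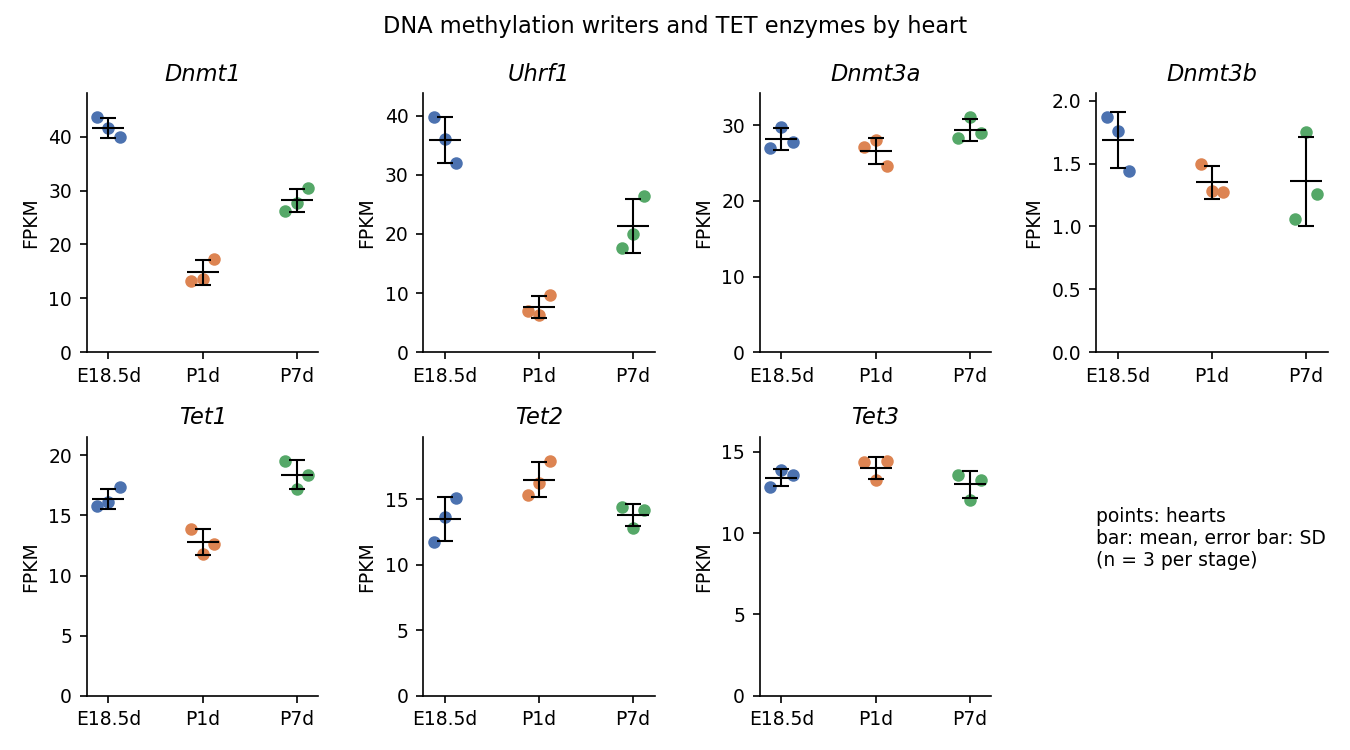
FPKM of the 7 genes (vertical axes, each from 0) at the 3 stages (horizontal axes), with a point per heart, the mean as a bar and the SD as error bar (n = 3). *Dnmt1* and *Uhrf1* have no overlap between any of the stages, with means of 41.7 and 35.9 FPKM at E18.5d against 14.8 and 7.63 at P1d.

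*Dnmt1* stood at 43.67, 41.56 and 39.98 FPKM in the E18.5d hearts, at 13.29, 13.63 and 17.33 in the P1d hearts and at 26.25, 27.75 and 30.51 in the P7d hearts. The 3 stages did not overlap, and every P1d heart was below every P7d heart, which was below every E18.5d heart. The means were 41.7 ± 1.85, 14.8 ± 2.24 and 28.2 ± 2.16 FPKM (SD, n = 3). From E18.5d to P1d the level was 2.83-fold lower, a log2 change of -1.45 ± 0.10 (SE) on the log2(FPKM + 1) scale, with a limma adjusted p of 7.19e-06. From P1d to P7d it rose 1.91-fold (0.90 ± 0.10, limma adjusted p = 0.000146). The P7d hearts remained below the fetal ones, with a log2 change of -0.55 ± 0.10 (limma adjusted p = 0.00156).

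*Uhrf1* followed the same order with a wider range. It stood at 39.75, 35.97 and 31.92 FPKM at E18.5d, at 7.0, 6.2 and 9.69 at P1d and at 17.62, 20.04 and 26.38 at P7d. No heart of one stage reached the range of another. The means were 35.9 ± 3.92, 7.63 ± 1.83 and 21.3 ± 4.52 FPKM (SD, n = 3). The P1d mean was 4.7-fold below the fetal one, with a log2 change of -2.11 ± 0.17 and a limma adjusted p of 1.91e-05. The P7d mean was 2.8-fold above that of P1d (1.37 ± 0.17, limma adjusted p = 0.000266) and below that of E18.5d (-0.74 ± 0.17, limma adjusted p = 0.00616).

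Both genes passed the threshold from E18.5d to P1d under all 22 other settings tried. Among hearts with *Xist* at or under 1 FPKM, which leave 1 fetal heart, all 3 of P1d and 1 of P7d, the *Dnmt1* means were 41.6, 14.8 and 26.2 FPKM and those of *Uhrf1* 36.0, 7.63 and 17.6. In that fit the difference between P7d and E18.5d had a limma adjusted p of 0.171 for *Dnmt1* and 0.145 for *Uhrf1*, against ranges of 0.000264 to 0.171 and 0.00274 to 0.182 over all settings. When all 9 hearts were kept and a term for *Xist* above 1 FPKM was added, the log2 change was -0.55 for *Dnmt1* (limma adjusted p = 0.00284). For *Uhrf1* it was -0.74 (limma adjusted p = 0.00813). P7d and E18.5d hold equal numbers of hearts above 1 FPKM, so this term could not move either difference. The fit with it therefore does not show whether the differences depend on *Xist*.

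The log2 changes of *Uhrf1* were larger in size than those of *Dnmt1*, and the ratio of both within a heart was compared. The plain ratio of their FPKM was 0.91, 0.865 and 0.798 in the E18.5d hearts, 0.527, 0.455 and 0.559 in the P1d hearts and 0.671, 0.722 and 0.865 in the P7d hearts. The P1d hearts lay below all others, and the ranges at P7d and E18.5d overlapped. The difference of their log2(FPKM + 1) was 0.662 lower at P1d than at E18.5d and 0.478 higher at P7d than at P1d. Both have an exact two-sided permutation p of 0.1, the smallest that 3 hearts against 3 allow, and a Benjamini-Hochberg adjusted value of 0.162 over the 21 ratio tests made, so neither is past the threshold. The plain ratio of FPKM is free of any factor common to a column, while the difference of log2(FPKM + 1) is not wholly so because of the added 1. In the hearts low in *Xist* the 2 differences were -0.676 and 0.33.

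*Dnmt3a*, the de novo enzyme with the higher level, stood at 27.03, 29.82 and 27.84 FPKM at E18.5d, at 27.1, 28.05 and 24.68 at P1d and at 28.29, 31.1 and 28.96 at P7d. The P7d hearts were above the P1d hearts by a narrow margin, and the other stages overlapped. The log2 changes were -0.08 at P1d and 0.06 at P7d relative to fetal hearts and 0.14 from P1d to P7d, where limma gave an adjusted p of 0.348, 0.502 and 0.121. This result depended on the scale of the columns. The median log2 change of all genes from E18.5d to P7d was -0.17 on the deposited scale and 0.01 after median of ratios scaling. With that scaling the P7d level of *Dnmt3a* exceeded the fetal one by 0.26 (limma adjusted p = 0.0138) and that of P1d by 0.27 (limma adjusted p = 0.0124), against ranges of 0.0138 to 0.904 and 0.00703 to 0.684 over all settings. Relative to the median of all genes on the deposited scale, *Dnmt3a* at P7d was 0.23 above E18.5d. An antisense gene, *Dnmt3aos*, shares 133 exonic bases with it at a mean of 0.306 FPKM, and whether the counting used strand is not stated.

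*Dnmt3b*, the other de novo enzyme, was the lowest of the 7 genes at every stage, at 1.87, 1.76 and 1.44 FPKM at E18.5d, 1.5, 1.28 and 1.27 at P1d and 1.06, 1.75 and 1.26 at P7d. All stages overlapped. Its means were 1.69 ± 0.223, 1.35 ± 0.13 and 1.36 ± 0.355 FPKM (SD, n = 3). With the estimated depth of the hearts and the length of all exons in GENCODE M21, this comes to about 168 to 348 fragments per heart. By the same estimate, *Dnmt1* had 2645 to 11161 fragments and *Dnmt3a* 11264 to 21079. The limma adjusted p of *Dnmt3b* was 0.258, 0.239 and 0.98 in the 3 comparisons. The mean ratio of *Dnmt3b* to *Dnmt3a* FPKM was 0.06, 0.0508 and 0.0457 at the 3 stages, with overlapping hearts. The difference of their log2(FPKM + 1) changed by -0.11 from E18.5d to P1d, by -0.257 from E18.5d to P7d and by -0.147 from P1d to P7d (exact two-sided permutation p = 0.4, 0.2 and 0.2).

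*Tet1* stood at 15.75, 16.13 and 17.35 FPKM at E18.5d, at 13.9, 11.79 and 12.61 at P1d and at 19.57, 17.21 and 18.35 at P7d. The P1d hearts were below all hearts of the other stages, and E18.5d and P7d overlapped. The mean fell from 16.4 ± 0.836 to 12.8 ± 1.06 FPKM (SD, n = 3) and then rose to 18.4 ± 1.18. The log2 change was -0.34 ± 0.08 from E18.5d to P1d (limma adjusted p = 0.00585) and 0.49 ± 0.08 from P1d to P7d (limma adjusted p = 0.000906). Both passed under 21 of 22 other settings, the exception being the fit of the *Xist*-low hearts, with limma adjusted p of 0.206 and 0.0934. Between P7d and E18.5d the change was 0.15 (limma adjusted p = 0.125), and 0.35 after median of ratios scaling (limma adjusted p = 0.00419, with a range of 0.00419 to 0.629 over all settings).

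*Tet2* had its highest level on P1d, with 15.31, 16.22 and 17.96 FPKM against 11.72, 13.66 and 15.09 at E18.5d and 14.39, 12.8 and 14.16 at P7d. The P1d hearts lay above all others, though the lowest P1d heart exceeded the highest fetal heart by a small margin. The log2 change from E18.5d to P1d was 0.28 ± 0.10 (limma adjusted p = 0.0416). It passed the threshold under only 8 of 22 other settings, with adjusted p from 0.015 to 0.531 in limma, and not when any of E18.5d replicates 1 and 2, P1d replicates 2 and 3 or P7d replicates 1 and 3 was left out (limma adjusted p = 0.0553 to 0.141). From P1d to P7d the change was -0.24 ± 0.10 (limma adjusted p = 0.069).

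*Tet3* passed the test in no comparison. It stood at 12.85, 13.86 and 13.58 FPKM at E18.5d, 14.35, 13.27 and 14.46 at P1d and 13.59, 12.04 and 13.29 at P7d. All stages overlapped. Its log2 changes of 0.06, -0.05 and -0.11 had limma adjusted p of 0.511, 0.589 and 0.235 and turned in sign under some scalings of the columns.

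Seen as shares of the summed TET FPKM within a heart, the 3 enzymes had another makeup on P1d than before and after, by a test that cannot pass the threshold. *Tet1* made up 39.1%, 37.0% and 37.7% at E18.5d, 31.9%, 28.6% and 28.0% at P1d and 41.2%, 40.9% and 40.1% at P7d. *Tet2* made up 29.1%, 31.3% and 32.8%, then 35.1%, 39.3% and 39.9%, then 30.3%, 30.4% and 30.9%. Thus *Tet1* had the largest share in every fetal and P7d heart and *Tet2* in every P1d heart. *Tet3* held 31.0% ± 1.33, 32.4% ± 0.47 and 28.7% ± 0.239 (SD, n = 3). The hearts of every pair of stages were separate for each gene except *Tet2* at E18.5d and P7d. Each separate pair had an exact two-sided permutation p of 0.1, the smallest possible, and an adjusted value of 0.162. Among the hearts low in *Xist*, the *Tet1* share at P1d was 7.46 percentage points below that of the fetal heart and 11.7 below that of P7d.

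**Figure D2:**
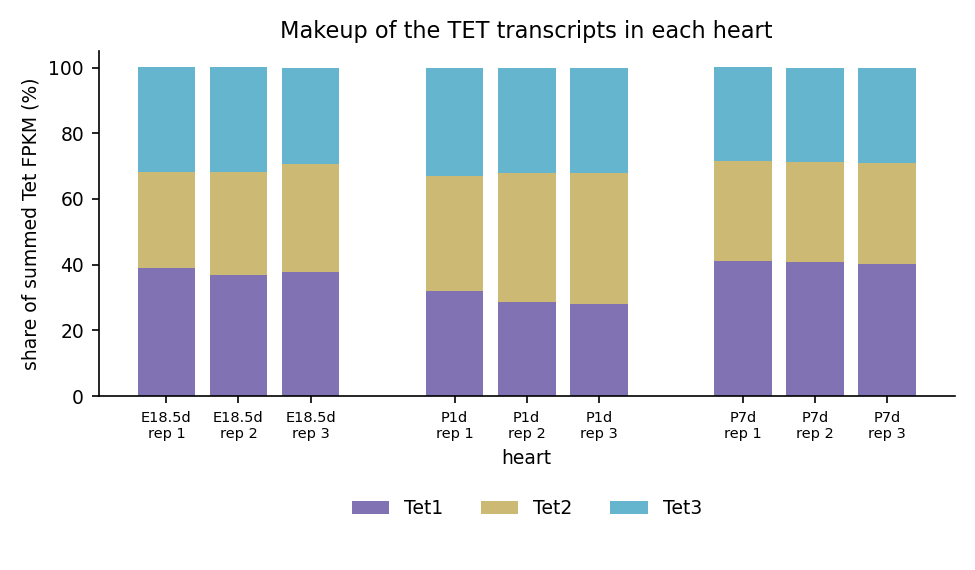
Stacked bars give the share of *Tet1*, *Tet2* and *Tet3* in their summed FPKM (vertical axis, percent) in each of the 9 hearts (horizontal axis). *Tet1* averages 37.9%, 29.5% and 40.7% at E18.5d, P1d and P7d, and *Tet2* 31.1%, 38.1% and 30.5%.

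The order of the levels differed between stages. At E18.5d it ran *Dnmt1*, *Uhrf1*, *Dnmt3a*, *Tet1*, *Tet2*, *Tet3* and *Dnmt3b*, and among neighbours only *Tet2* and *Tet3* overlapped. At P1d *Dnmt3a* led with 26.6 ± 1.74 FPKM (SD, n = 3), the hearts of *Tet2* and *Dnmt1*, *Dnmt1* and *Tet3*, and *Tet3* and *Tet1* overlapped, and *Uhrf1* had dropped to the sixth place. At P7d *Dnmt3a* (29.4 ± 1.47), *Dnmt1*, *Uhrf1* and *Tet1* overlapped each with the next, *Tet2* and *Tet3* followed with overlapping hearts, and *Dnmt3b* was last.

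Across the 13618 genes whose mean reached 1 FPKM, 27.6% fell and 18.4% rose between E18.5d and P1d, and of the 7 genes 3 were lower (*Dnmt1*, *Uhrf1*, *Tet1*) and 1 higher (*Tet2*). Between P7d and E18.5d 36.9% of all genes were lower and 12.5% higher, against 2 and 0 of the 7. Between P7d and P1d 28.6% of all genes were lower and 15.5% higher, against 0 and 3 of the 7. At an unadjusted p under 0.05 in limma, 0 of the 7 were higher at P7d than at E18.5d and 1 (*Tet2*) was lower at P7d than at P1d. With so few genes these counts were not set apart from the background. On other scales the whole-table split moved. After median of ratios scaling 2545 genes were lower and 3159 higher at P7d against fetal hearts, in place of 5025 and 1706, and 2471 and 3194 against P1d, in place of 3901 and 2112. With equal column sums 4694 were lower and 1175 higher at P1d against fetal hearts, in place of 3755 and 2505. These comparisons share their hearts, so the fall to P1d and the rise from it are not independent of each other. The plot of changes under 4 scales shows that the direction for *Dnmt1*, *Uhrf1* and *Tet1* was the same under each.

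**Figure D3:**
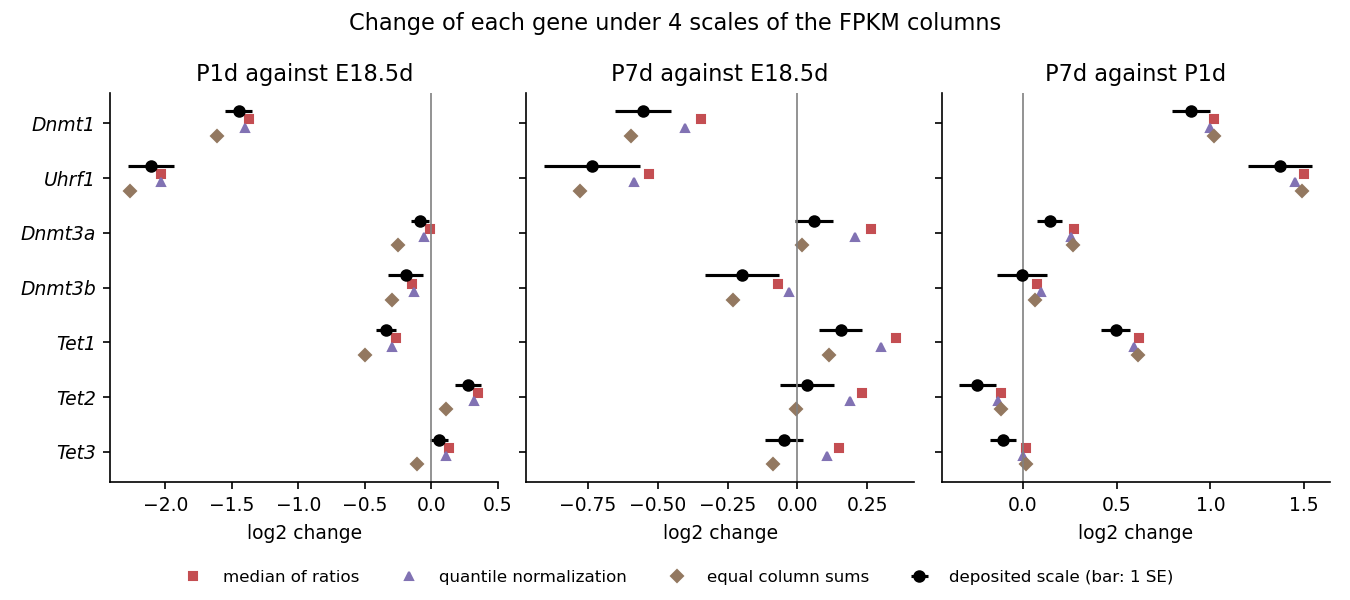
Log2 change of each gene (horizontal axes, log2(FPKM + 1)) in the 3 comparisons, on the deposited scale (black, bar of 1 SE) and after 3 other scalings of the columns. *Dnmt1* and *Uhrf1* lie far from 0 in every panel, while *Dnmt3b*, *Tet2* and *Tet3* cross 0 with the scaling in at least 1 panel.

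DNMT1 and UHRF1 act at the replication fork, so 24 genes of S phase (the MCM helicase, polymerases, nucleotide supply and chromatin assembly) were set beside them. All 24 passed the test as lower at P1d than at E18.5d, against 27.6% of all genes. Their median log2 change was -1.56 against -0.06 for all genes. Of the 24, 21 were higher at P7d than at P1d (median 0.80), against 15.5% of all genes. At P7d 22 stood below their fetal level, against 36.9% of all genes (median -0.66, and 14 after median of ratios scaling). These shares are from all 9 hearts on the deposited scale. Far fewer genes passed in the hearts low in *Scgb3a2* or *Xist*, so the shares do not apply to the counts there. *Cdc6*, which loads the MCM helicase, changed by -1.98 at P1d (limma adjusted p = 8.58e-05), from a mean of 6.49 to 0.937 FPKM. *Rrm2*, a subunit of ribonucleotide reductase, changed by -1.97 (limma adjusted p = 2.13e-05), from 67.8 to 17.0 FPKM. At P7d *Gins1*, part of the replicative helicase, was below its fetal level by a log2 change of -1.17 and *Rrm1*, the large subunit of ribonucleotide reductase, by one of -0.94 (limma adjusted p = 4.72e-05 and 0.000154). In the hearts low in *Scgb3a2* 22 of the 24 were lower at P1d, and in those low in *Xist* 12 were. At P7d 19 of the 24 were above P1d and 9 below the fetal level in the former hearts, and 0 and 0 in the latter.

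The level of *Dnmt1* relative to the S phase genes, as the difference of log2(FPKM + 1) from their mean in the same heart, came to 0.957 ± 0.0203 in fetal hearts, to 0.939 ± 0.0962 on P1d and to 1.07 ± 0.031 on P7d (SD, n = 3). The E18.5d and P1d hearts overlapped (difference -0.0176, exact permutation p = 0.8), and the sign of that difference turned with a pseudocount of 0.1. The P7d hearts were separate from the fetal ones (difference 0.109, exact two-sided permutation p = 0.1, adjusted value 0.162) and overlapped with those of P1d (0.126, exact two-sided permutation p = 0.2). For *Uhrf1* the same measure was 0.74 ± 0.0845, 0.06 ± 0.139 and 0.665 ± 0.208. The P1d hearts were separate from the others, by -0.68 against E18.5d and 0.605 against P7d (exact two-sided permutation p = 0.1 and adjusted value 0.162 for each). In whole hearts, fewer cells of a type that expresses a gene and less of its RNA per cell cannot be told apart.

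**Figure D4:**
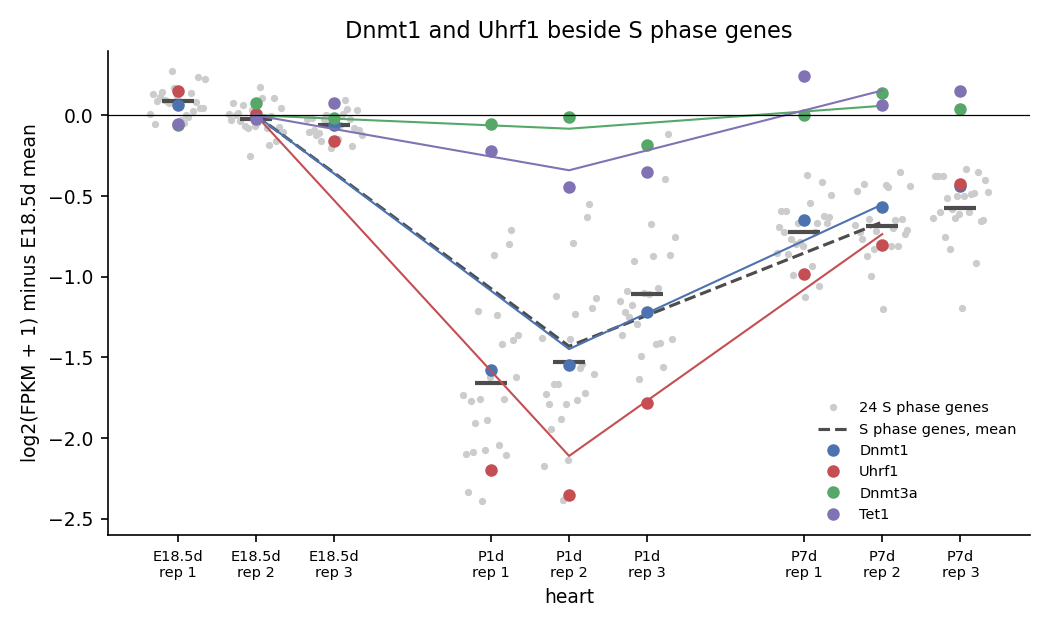
Log2(FPKM + 1) minus the E18.5d mean of each gene (vertical axis) in the 9 hearts (horizontal axis). Grey points are the 24 S phase genes with a dark bar for their mean in each heart, coloured points are *Dnmt1*, *Uhrf1*, *Dnmt3a* and *Tet1*, and lines join stage means. *Dnmt1* lies near the S phase mean in the P1d hearts, *Uhrf1* below it, and *Dnmt3a* and *Tet1* well above it.

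Marker genes of cell types were measured in the same hearts. Of 7 fibroblast markers 4 were lower and 0 higher at P1d against E18.5d (median log2 change -0.29). At P7d against P1d 0 were lower and 4 higher (median 0.42). At P7d against E18.5d 0 of these markers were lower and 2 higher (median 0.24). Of 8 cardiomyocyte markers 0 were lower and 4 higher from E18.5d to P1d, and 1 and 2 from P1d to P7d. Of 7 endothelial markers these counts were 1 and 3, then 1 and 2. Of 5 epicardial markers they were 2 and 1, then 4 and 0. Of 6 smooth muscle and pericyte markers they were 0 and 2, then 1 and 3, and of 6 macrophage markers 0 and 4, then 1 and 1. At P7d against E18.5d 1 cardiomyocyte and 1 endothelial marker were lower and 5 of each higher. There 4 epicardial markers were lower and 0 higher, with 2 and 3 for smooth muscle and pericyte and 0 and 1 for macrophage markers. Among all tested genes 27.6% were lower and 18.4% higher from E18.5d to P1d, and 28.6% and 15.5% from P1d to P7d. At P7d against E18.5d 36.9% were lower and 12.5% higher. The marker counts were not tested against these shares. The counts of 0 were also 0 at an unadjusted p under 0.05 in limma. The summed FPKM of 8 cardiomyocyte markers spanned 19700 to 20300 in fetal hearts, 22900 to 25500 on P1d and 24400 to 25500 on P7d, with none at 0. That of 7 endothelial markers was 413 to 447, 489 to 533 and 543 to 562, and that of 7 fibroblast markers 1380 to 1420, 1080 to 1420 and 1590 to 1670. The sum of 6 smooth muscle and pericyte markers was 805 to 990, 859 to 942 and 818 to 908. The sum of 5 epicardial markers was 52.7 to 63.7, 51.4 to 67.2 and 27.6 to 32.0, that of 6 macrophage markers 50.4 to 64.5, 69.2 to 101 and 67.0 to 72.8, and that of 5 brown fat markers 22.2 to 24.3, 35.9 to 44.3 and 46.9 to 53.0. Erythroid markers summed to 5810 to 15500, 8920 to 17100 and 5720 to 7410 over 8 genes. All 7 lymphocyte markers were under 1 FPKM in every heart. The 7 airway and lung markers, of which 4 were under 1 FPKM in every heart, summed to 1.98 to 251, 1.1 to 492 and 0 to 0.27. Their part in the values of the 7 genes was not tested. In the hearts with *Scgb3a2* at or under 5 FPKM, *Dnmt1* and *Uhrf1* were again lower at P1d than at E18.5d (log2 changes of -1.32 and -1.91). Their calls between P7d and E18.5d were lost there. These hearts include a single fetal heart, replicate 3, which is high in *Xist*. The P1d hearts left, replicates 2 and 3, are low in it, so stage and *Xist* cannot be told apart in that comparison.

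The counts of the lists below are read against the shares of all tested genes, which were 27.6% lower and 18.4% higher at P1d against E18.5d, 36.9% and 12.5% at P7d against E18.5d, and 28.6% and 15.5% at P7d against P1d. These shares are from the fit of all 9 hearts on the deposited scale. They do not apply to counts in the hearts low in *Scgb3a2* or *Xist* or on other scales, here or for the S phase genes. In those hearts far fewer of all genes passed, and the numbers are given at the end. Among 19 tested readers of methyl-CpG and cofactors of the writers, 8 fell and 1 rose by P1d, and 10 and 0 by P7d, relative to fetal hearts (medians -0.15 and -0.26, with -0.06 and -0.17 for all genes). *Cdca7* and *Hells*, which form a remodelling complex needed for methylation at repeats, changed by -1.63 (14.0 to 3.91 FPKM, limma adjusted p = 4.51e-05) and -1.42 (4.88 to 1.27 FPKM, limma adjusted p = 0.000412) at P1d. *Mbd1*, a methyl-CpG binding protein, was higher by 0.41 (9.17 to 12.5 FPKM, limma adjusted p = 0.00324). At P7d the largest decreases were in *Cdca7l*, a paralogue of *Cdca7* (-1.02, limma adjusted p = 0.000102), and *Uhrf2*, the paralogue of *Uhrf1* (-0.86, limma adjusted p = 9.88e-05). *Uhrf2* had means of 27.6, 16.2 and 14.8 FPKM at the 3 stages, while *Uhrf1* had 35.9, 7.63 and 21.3. After median of ratios scaling the count of lower readers at P7d was 5 and that of higher ones 2, and in limma 1 was higher at P7d at an unadjusted p under 0.05 on the deposited scale. Between P1d and P7d 5 were lower and 4 higher, and the count of higher ones was 1 to 3 when any 1 heart was left out, with 1 without P1d replicate 1, P7d replicate 2 or P7d replicate 3. In the hearts low in *Scgb3a2* 4 readers were lower at P1d and 5 at P7d relative to fetal hearts, and in those low in *Xist* 3 and 0.

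Among 16 tested genes that act after TET oxidation or partner with TET enzymes, 6 were lower and 1 higher at P1d, and 11 and 2 at P7d (6 lower after median of ratios scaling). From P1d to P7d 5 were lower and 2 higher. The count of lower genes at P1d was 3 without E18.5d replicate 1. That from P1d to P7d was 2 without P7d replicate 1 and 3 without E18.5d replicates 1 or 2, P1d replicate 1 or P7d replicate 2. In the hearts low in *Scgb3a2* 2 were lower at P1d and 4 at P7d relative to fetal hearts, and in those low in *Xist* 0 and 1. *Tdg*, the glycosylase that removes oxidized methylcytosine, had a mean of 29.1, 25.8 and 25.3 FPKM at the 3 stages, with log2 changes of -0.17 and -0.19 from E18.5d (limma adjusted p = 0.0365 and 0.0208), and was named for this role after its values were seen. The DNA glycosylase *Neil3* changed by -1.54 and *Parp1*, which senses strand breaks, by -0.55 at P1d (limma adjusted p = 9.8e-05 and 0.000201). *Gadd45a*, a stress gene linked to demethylation, rose from 0.97 to 2.88 FPKM at P1d and 3.73 at P7d (0.98 and 1.27, limma adjusted p = 0.000871 and 0.000184), while its relative *Gadd45b* was at 6.99 FPKM at E18.5d and 2.64 at P7d (-1.16, limma adjusted p = 0.000526). *Apex1*, the abasic site endonuclease, changed by -0.77 at P7d (limma adjusted p = 5.17e-05). *Cxxc5*, a CXXC protein that binds TET2, was higher at P7d by 0.23 (limma adjusted p = 0.0187), a call that was lost in 7 of 22 other settings, with adjusted p from 0.000934 to 0.386.

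Of 16 enzymes around 2-oxoglutarate, the cosubstrate of TET enzymes, at P1d 0 were lower and 5 higher (1 lower and 1 higher with columns set to an equal sum), and at P7d 2 were lower and 4 higher than at E18.5d (0 and 8 after median of ratios scaling). In the limma fit 1 enzyme was lower at P1d at an unadjusted p under 0.05. The 5 higher at P1d are 31.2% of the list, against 18.4% of all genes, and numbered 3 when any single E18.5d heart, P1d replicate 2 or P1d replicate 3 was left out. From P1d to P7d 7 were lower and 2 higher. Relative to fetal hearts, 1 was higher at P1d and 1 at P7d in the hearts low in *Scgb3a2*, and 0 and 0 in those low in *Xist*. *Idh3g* and *Idh2*, mitochondrial isocitrate dehydrogenase genes, rose by 0.51 and 0.36 at P1d (limma adjusted p = 0.000158 and 0.00338). *Idh3a* and *Idh3b*, for subunits of the same enzyme as *Idh3g*, changed by -0.06 and 0.03 (limma adjusted p = 0.411 and 0.621). Both were named after their values were seen. *Ogdh*, the 2-oxoglutarate dehydrogenase that consumes the cosubstrate, stood at 265, 277 and 511 FPKM at the 3 stages, a change of 0.94 at P7d (limma adjusted p = 4.07e-06), and *Dlst*, a subunit of the same complex, changed by 0.21 (limma adjusted p = 0.00972). Fumarase *Fh1* changed by -0.27 at P7d (limma adjusted p = 0.0241) and did not pass after median of ratios scaling (limma adjusted p = 0.614, with a range of 0.00639 to 0.614 over all settings).

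The one-carbon cycle, which supplies S-adenosylmethionine as the methyl donor of the DNMT enzymes, had 10 of 18 tested genes lower and 2 higher at P1d, and 13 and 0 at P7d (medians -0.31 and -0.53). No gene of this list was higher at P7d at an unadjusted p under 0.05 in limma (0 of 18). Of these genes 6 were lower and 4 higher at P7d than at P1d. Those lower at P1d and P7d relative to fetal hearts numbered 6 and 8 in the hearts low in *Scgb3a2*, and 4 and 1 in those low in *Xist*. The largest decreases at P1d were in *Mthfd2*, a mitochondrial folate enzyme (-1.69, 7.52 to 1.64 FPKM, limma adjusted p = 1.15e-05), and *Tyms*, thymidylate synthase (-1.64, 19.3 to 5.58 FPKM, limma adjusted p = 0.000128). *Mat2b*, the regulatory subunit of methionine adenosyltransferase, and *Mtr*, methionine synthase, rose by 0.66 and 0.48 at P1d (limma adjusted p = 0.000385 and 0.00124). Their means went from 41.5 to 66.2 and from 16.0 to 22.7 FPKM. At P7d *Mthfd2* and *Mthfd1l*, both of the mitochondrial folate branch, changed by -1.02 each (limma adjusted p = 0.000177 and 0.00102).

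A further list held 17 other genes of repressive chromatin, which place, keep or remove histone marks. Those that remove marks are the deacetylase genes *Hdac1*, *Hdac2* and *Hdac3* and the demethylase genes *Kdm1a* and *Kdm2b*. Of the 17, 7 were lower and 3 higher at P1d, and 11 and 0 at P7d (6 and 2 after median of ratios scaling). At an unadjusted p under 0.05 in limma 0 were higher at P7d. Against P1d, 5 were lower and 2 higher at P7d. The count of higher ones was 1 at P1d without E18.5d replicate 3, and 1 at P7d against P1d without P1d replicate 1 or P7d replicate 1. Relative to fetal hearts, 5 were lower at P1d and 7 at P7d in the hearts low in *Scgb3a2*, and 1 and 0 in those low in *Xist*. *Ezh2*, the H3K27 methyltransferase, had means of 27.6, 11.8 and 15.4 FPKM, with log2 changes of -1.16 and -0.80 from E18.5d (limma adjusted p = 2.19e-06 and 1.03e-05). Its paralogue *Ezh1* rose by 0.69 at P1d, from 10.2 to 17.2 FPKM (limma adjusted p = 0.002). *Suv39h2* and *Suv39h1*, H3K9 methyltransferases, changed by -1.05 at P1d and -0.82 at P7d (limma adjusted p = 0.000394 and 6.05e-05). *Hdac3*, a histone deacetylase, was higher at P1d by 0.28 (limma adjusted p = 0.0165), and by 0.11 with equal column sums (limma adjusted p = 0.332, with a range of 0.00564 to 0.332 over all settings).

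**Figure D5:**
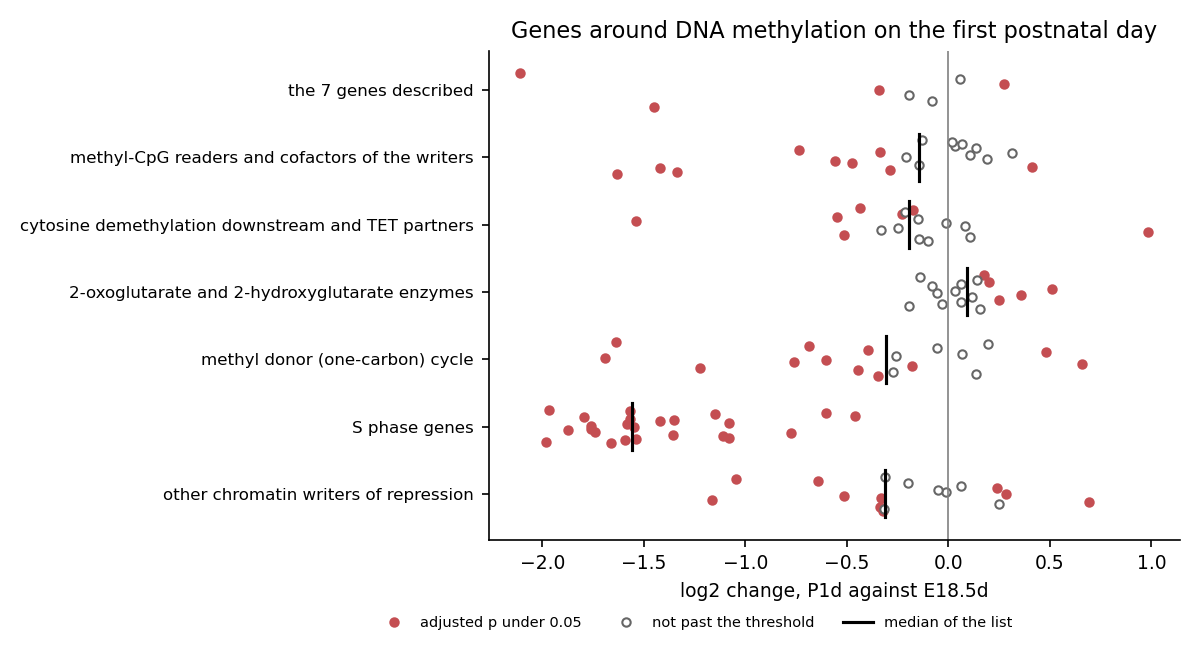
Log2 change from E18.5d to P1d (horizontal axis) of each tested gene of the 7 described and of 6 lists around them (vertical axis). Red points passed the threshold of 0.05 on the adjusted p, open points did not, and the black line is the list's median, which is -1.56 for the S phase genes and 0.09 for the 2-oxoglutarate enzymes.

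For each of the 7 genes, the genes nearest in pattern were those with the smallest root mean square difference of log2(FPKM + 1) over the 9 hearts, each gene centred on its mean. For *Dnmt1* they were *Pole2* (0.054), *Lmnb2* (0.055) and *Mybl2* (0.055), and *Pole2*, a DNA polymerase epsilon subunit, had means of 6.99, 1.89 and 4.68 FPKM. For *Uhrf1* they were *Clspn* (0.143), *Mcm2* (0.154) and *Hist1h2bn* (0.175). The measure depends on the size of a gene's changes, which were larger for *Uhrf1*, so its distances cannot be compared with those of *Dnmt1*. *Mcm2*, part of the replicative helicase, had means of 37.0, 9.68 and 25.7 FPKM. For *Dnmt3a* they were *Atp13a1* (0.041) and *Cd81* (0.048), among others, and for *Dnmt3b* *Bcdin3d*, *Naf1* and *Homez* (0.076 to 0.081). For *Tet1* they were *Gm43795*, *Spred2* and *Ank2* (0.06 to 0.073), for *Tet2* *Gm42585*, *Ispd* and *Aph1b* (0.041 to 0.061) and for *Tet3* *Lrrfip1*, *Zc3h12c* and *Cab39* (0.034 to 0.041). Genes with little change are near each other by this measure whatever they do.

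Of the 34 changes that the rule chose from the lists, none turned in direction under any of the 22 other settings. With equal column sums 29 passed the threshold, those lost being *Mbd1*, *Cxxc5*, *Idh2*, *Dlst* and *Hdac3*. In the hearts low in *Scgb3a2* 27 of the 34 passed, and in those low in *Xist*, where fetal hearts and P7d are left with 1 heart each, 6 did. In the other settings that kept all 34 genes, at least 32 passed.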

How the data were processed

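RNA-seq (NEBNext Ultra libraries) had been run on whole wild-type C57BL/6J hearts of 3 stages, with 3 biological replicates each. The authors deposited FPKM of 48820 genes, rounded to hundredths, in a single table. The submitters' processing notes name STAR and the builds GRCm38 and mm10, while the counting tool and annotation are not given in the sources used here. Samples were grouped by the stage in their labels. Whether same-numbered hearts, or the hearts of a stage, share a litter is not stated. If the hearts of a stage are littermates, litter and stage cannot be told apart. The p-values take the 3 hearts of a stage as independent.

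Values were taken as log2(FPKM + 1), and limma 3.58.1 (R 4.3.3, eBayes with trend) was run on all 9 hearts together over the 13618 genes whose mean reached 1 FPKM, with Benjamini-Hochberg adjustment over these genes and a threshold of 0.05. The scale understates changes of low genes. Ratios within a heart were tested with exact two-sided permutation tests in Python 3.11.15. Gene positions came from GENCODE M21 of GRCm38, matched by identifier without version (48058 of 48820), and promoter windows from RefSeq. Steps between low FPKM values gave a depth of 25.5 to 44.5 (1e6 fragments per heart), with 87.9% to 91.3% of these values whole against 32.9% to 42.3% by chance. FPKM columns summed to 1347981 to 1794160. The fit and the depth estimate were tested on simulated data.

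The members and gene lists were chosen with earlier results of these data known. Named were the 7 genes, from each list the 2 strongest decreases and the 2 strongest increases past the threshold at P1d and at P7d relative to E18.5d, and the 3 genes nearest in pattern. Of the genes so chosen, 2 are not reported here. The alternatives were another pseudocount, filters, scalings of the columns, eBayes without trend, only the stages compared, a replicate block, a term for *Xist*, and leaving out hearts. Rescaling to protein-coding nuclear genes, the *Scgb3a2* selection and ratios without pseudocount were added after seeing the data.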

Additional observations from a re-analysis of the deposited data

How the results depend on the processing

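The calls of *Dnmt1* and *Uhrf1* at P1d against E18.5d passed in all 22 other settings. The precision is limited by 3 hearts per stage and, for *Dnmt3b*, by its low level; the filter at a mean of 5 FPKM leaves it out. Where only hearts low in *Xist* or *Scgb3a2* were used, arms were left with 1 heart, which is assumed to vary like the other groups, and fewer samples entered the fit. Where not stated otherwise, the cause of a change was not tested. Adjusted p are from limma.

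For *Tet2* at P1d against E18.5d, the call was lost with no filter (0.276), eBayes without trend (0.276), only the 2 stages compared (0.276), equal column sums (0.113), the *Xist* covariate (0.234), the *Xist*-low hearts (0.252), protein-coding rescaling (0.289) and the *Scgb3a2*-low hearts (0.167), each leaving 0 of the 7 genes higher at P1d. Leaving out 1 heart gave 0.185 to 0.355, and 0 to 1 of the 7 genes higher. *Tet2* at P7d against P1d passed without E18.5d replicate 1 (adjusted p = 0.0429), with values of -0.291 to -0.183 over the hearts left out and 0 to 1 of the 7 genes lower.

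With median of ratios, quantile normalization and protein-coding rescaling, *Dnmt3a* was called higher at P7d against E18.5d (0.264, 0.205 and 0.222) and against P1d (0.272, 0.258 and 0.291), and *Tet1* higher at P7d against E18.5d (0.354, 0.298 and 0.313), so 2 of the 7 genes were higher there. These scalings move the median of all genes. *Tet3* turned in sign at P7d against E18.5d (0.15, 0.105 and 0.109) and, with median of ratios, protein-coding rescaling and equal sums, at P7d against P1d (0.0189, 0.0376 and 0.0154). *Dnmt3b* at P7d against P1d turned to 0.0736, 0.0985 and 0.0826, and to 0.0638 with equal sums. Equal sums also turned *Tet3* at P1d (-0.104) and *Tet2* at P7d (-0.00674) against E18.5d.

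In the *Xist*-low hearts the calls were lost for *Tet1* (-0.318 at P1d against E18.5d, 0.582 at P7d against P1d), *Dnmt1* (-0.643 at P7d against E18.5d, 0.8 at P7d against P1d) and *Uhrf1* (-0.99 and 1.13), with 0 of the 7 genes lower at P7d against E18.5d and 0 higher at P7d against P1d, and *Dnmt3a* turned to -0.0735 at P7d against E18.5d. In the *Scgb3a2*-low hearts they were lost at P7d against E18.5d for *Dnmt1* (-0.493) and *Uhrf1* (-0.578), leaving 0 lower, and *Tet2* turned to -0.124 there and *Dnmt3b* to 0.0403 at P7d against P1d. With 1 heart left out, changes turned for *Tet2* and *Tet3* at P7d against E18.5d (ranges -0.0567 to 0.113 and -0.0795 to 0.00156) and *Dnmt3b* at P7d against P1d (-0.122 to 0.0867).

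The counts of all genes lower and higher were 584 and 239, 101 and 93, and 104 and 75 in the 3 comparisons (P1d against E18.5d, P7d against E18.5d, P7d against P1d) in the *Xist*-low hearts, and 1452 and 1019, 2262 and 990, and 2579 and 1403 in the *Scgb3a2*-low hearts. They were 2545 and 3159 (median of ratios), 2920 and 2893 (quantile normalization) and 2871 and 2752 (protein-coding rescaling) at P7d against E18.5d, and 2471 and 3194 (median of ratios) and 2234 and 3294 (protein-coding rescaling) at P7d against P1d. Genes higher at P1d numbered 1175 with equal sums and 1607 with the *Xist* covariate, and genes lower at P7d against P1d 1729 and 2438.

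The ratio of *Dnmt1* to the S phase genes at P1d against E18.5d turned to 0.0874 with a pseudocount of 0.1 and 0.104 with none, and spanned -0.0648 to 0.0314 with 1 heart left out. That of *Uhrf1* at P7d against E18.5d spanned -0.188 to 0.0159, and the *Tet2* share -1.5 to 0.359 percentage points. Same-numbered hearts correlated by -0.055 to 0.112, so the numbers were not taken to pair them. With the replicate number as a block, *Dnmt1* and *Uhrf1* changed by -1.45 and -2.11 at P1d (adjusted p = 5.13e-05 and 0.000103), no call among the 7 genes changed, and 3686 and 2487, 4961 and 1706, and 3817 and 2040 genes were lower and higher in the 3 comparisons.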
